A study of Macaca mulatta with 8 samples.

Results

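The restriction factor genes described here, 7 of the 26533 features counted, are BST2, MX1, MX2, ISG15, ISG20, RSAD2 and SAMHD1, followed through the cell classes of the macaque retina after subretinal AAV delivery. They were matched by gene symbol, and all 7 were found. They had been chosen by their UMI levels in rods of the blebs and uninjected areas, under a rule that read UMIs per cell class, area and eye. The libraries are droplet single-cell RNA sequencing of retina from 2 non-human primates (NHPs), both wild-type males, 5 (NHP1) and 6 (NHP2) years old, with 4 groups of 2 libraries, 1 from the right and 1 from the left eye. NHP1 had received AAV2-CAG-hRPE65 (human RPE65 behind a promoter active in most cells) in each eye, and its 2 libraries are labelled uninjected. NHP2 gave, from each eye, an uninjected area, a bleb of AAV8-GRK1-hRPGR (human RPGR behind a photoreceptor promoter, counted as the feature coRPGR) and a bleb of AAV8-GRK1-mScarlet (a red fluorescent reporter behind the same promoter). Fluid injected under the retina raises it locally into a bleb. By the study's methods every eye received triamcinolone, a steroid, and left eyes also received adalimumab, an antibody against TNF, so that eye and drug cannot be told apart. The mScarlet and hRPGR vectors also differed in grade and dose, and these cannot be told apart from the transgene. All 6 NHP2 libraries came from 1 animal, so its 2 eyes stand in for replicates and p-values measure the spread between eyes and punches only.

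Restriction factors are proteins that hinder single steps of a virus life cycle. Interferons bind receptors on the cell surface, JAK kinases phosphorylate STAT proteins, and STAT complexes enter the nucleus, where they bind the interferon-stimulated response element (ISRE) or the gamma-activated site (GAS) near their target genes. BST2, also called tetherin, is a membrane protein that holds budding enveloped virus at the cell surface. MX1 and MX2 are dynamin-like GTPases that act on incoming viral nucleoproteins and capsids. ISG15 is a ubiquitin-like protein that is joined to other proteins or secreted. ISG20 is an exonuclease that degrades RNA, RSAD2 (viperin) makes a chain-terminating nucleotide, and SAMHD1 hydrolyses dNTPs, the building blocks that reverse transcription and DNA synthesis need.

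The promoters of BST2, ISG15 and RSAD2 are shown because they hold an ISRE, and that of SAMHD1 because its level in rods differed least between areas. Each is the run of 250 bases before the 5′ end of the gene in the RefSeq annotation of Mmul_10, read 5′ to 3′ on the strand of the gene, with matches to GAAA, any 2 bases and GAAA (ISRE, read as TTTC, any 2 bases and TTTC on the other strand) or TTCNNNGAA (GAS, its own reverse complement) in capitals.
BST2, chr19:16907636-16907885, minus strand: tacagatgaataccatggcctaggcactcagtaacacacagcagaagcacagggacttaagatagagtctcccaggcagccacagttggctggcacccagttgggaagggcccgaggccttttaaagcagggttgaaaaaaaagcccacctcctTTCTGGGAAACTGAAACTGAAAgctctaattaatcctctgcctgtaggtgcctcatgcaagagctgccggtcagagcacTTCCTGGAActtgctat
ISG15, chr1:223405103-223405352, minus strand: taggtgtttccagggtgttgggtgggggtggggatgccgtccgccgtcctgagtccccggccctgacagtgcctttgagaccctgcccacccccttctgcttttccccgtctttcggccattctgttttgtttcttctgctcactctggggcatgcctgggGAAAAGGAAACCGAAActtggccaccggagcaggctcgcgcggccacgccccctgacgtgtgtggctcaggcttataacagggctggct
RSAD2, chr13:101901658-101901907, minus strand: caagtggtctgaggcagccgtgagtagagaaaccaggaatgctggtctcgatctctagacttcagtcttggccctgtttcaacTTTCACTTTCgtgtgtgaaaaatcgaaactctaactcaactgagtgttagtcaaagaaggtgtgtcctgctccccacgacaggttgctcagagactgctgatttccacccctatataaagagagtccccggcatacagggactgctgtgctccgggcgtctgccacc
SAMHD1, chr10:72218853-72219102, minus strand: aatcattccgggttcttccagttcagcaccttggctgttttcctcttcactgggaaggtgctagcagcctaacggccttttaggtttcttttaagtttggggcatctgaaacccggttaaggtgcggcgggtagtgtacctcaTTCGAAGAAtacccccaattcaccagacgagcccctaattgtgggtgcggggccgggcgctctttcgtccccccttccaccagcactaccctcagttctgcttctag

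BST2 held 2 overlapping ISRE matches, at bases -90 and -84 from the gene start, and 2 GAS matches, at -96 (overlapping the first ISRE) and -17. ISG15 also held 2 overlapping ISRE matches, at -89 and -83. RSAD2 held 1 ISRE on the other strand at -167, and SAMHD1 held 1 GAS at -107. The ISRE letters occurred in 3 of the 7 promoters and in 3.03% of the 20787 protein-coding promoters of the same length, and the GAS letters in 2 of the 7 and in 5.98%. For MX1 (chromosome 3, 5189230 to 5224218), MX2 (chromosome 3, 5231296 to 5275461) and ISG20 (chromosome 7, 67388764 to 67405372) no match stood in this window, which says only that these letters are not in it, since MX1 has 5 annotated transcripts and MX2 has 4. A match is a description of sequence and not a measured binding site.

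The libraries held between 90634306 and 146519011 UMIs (unique molecular identifiers, 1 per captured RNA molecule) and 9562 to 15080 cells each. Levels are given as CPM, the UMIs of a gene per 1000000 UMIs summed over all cells of a class in a library. Cell classes are clusters named from marker genes, and 23 of 63 clusters stayed unnamed, among them 11 with rod markers as the best match. These 11 held 21105 cells, unevenly over libraries. Cluster 37 (3399 cells) came to 74.3% from the left NHP2 uninjected area, and cluster 51 (2864 cells) to 62.4% from the right hRPGR bleb. Free RNA was read from barcodes with 100 to 1000 UMIs, and rod markers in bipolar-like cells put its share of their UMIs at 9.83% to 18.7%. The level that free RNA would give is this share of its CPM. Transgene UMIs went against 3 of the labels: in the right NHP2 library labelled uninjected 19.3% of rod-like cells had a coRPGR UMI (160 CPM, against 3829 and 1424 CPM in the right and left hRPGR blebs), and in the left NHP1 library labelled uninjected 48.3% had a huRPE65 UMI (619 CPM). The right mScarlet bleb also held coRPGR UMIs, in 4.63% of rod-like cells (25.6 CPM), against 0.0714% in the left one. Calls outside rods against the uninjected areas are therefore also given without the right uninjected library, and BST2 calls outside rods also without the right mScarlet library. Markers of myeloid cells summed to 1.37 to 15.2 CPM in rod-like cells and 5.56 to 24.6 CPM in bipolar-like cells, against at least 7628 CPM in myeloid-like cells. In rod-like cells the right hRPGR bleb had the highest sum, ahead of the mScarlet blebs at 5.98 (right) and 8.91 CPM (left), and in bipolar-like cells the mScarlet blebs were highest, at 16.7 and 24.6 CPM. Their part in the results was not tested.

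BST2 was close to absent from rods of the libraries labelled uninjected and prominent in the mScarlet blebs. Not all of the former were free of vector: 19.3% of rod-like cells in the right NHP2 one had a coRPGR UMI, and 48.3% in the left NHP1 one had a huRPE65 UMI. In rod-like cells of NHP2 the right eye had 0.375 CPM in the uninjected area, 10.2 CPM in the hRPGR bleb and 83.7 CPM in the mScarlet bleb, and the left eye had 0.442, 3.79 and 76.1 CPM in the same order. The 3 areas did not overlap, and the 2 NHP1 libraries, at 0.0418 and 0.383 CPM, lay within or below the range of the uninjected areas of NHP2. How many of all genes separate the areas or the eyes in this way was not counted. Non-overlap, here and below, is therefore a description only. The means were 79.9 ± 5.38 CPM (SD, n = 2) in the mScarlet blebs, 6.98 ± 4.51 CPM in the hRPGR blebs and 0.408 ± 0.0471 CPM in the uninjected areas. The log2 fold change over the uninjected area was 7.49 (SE 0.51, or 6.71 with the unnamed rod-marker clusters counted) for mScarlet and 4.00 (SE 0.57) for hRPGR. These 2 contrasts in rods are the ones that brought the 7 genes forward, so they are given as descriptions without a test.

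The same order appeared cell by cell. After every rod-like cell had been thinned to 3000 UMIs, 18.9% (exact binomial 95% interval 17.7 to 20.1) of the cells in the right mScarlet bleb and 18.2% (17.1 to 19.3) in the left had a BST2 UMI. In the hRPGR blebs the share was 2.80% (2.32 to 3.35) on the right and 1.19% (0.875 to 1.58) on the left. In the uninjected areas it was 0.197% (0.0902 to 0.374) and 0.237% (0.0952 to 0.487). Intervals cover counting error only. The shares in the blebs exceeded those of both uninjected areas, and the median depth of rod-like cells before thinning ran the other way, from 6685 and 7482 UMIs in the uninjected areas to 5554 and 5086 UMIs in the mScarlet blebs. Free RNA would have given rods 4.59 and 7.32 CPM of BST2 in the mScarlet blebs, so that the measured level was 18.3 and 10.4 times that amount. In the right uninjected area the measured level was 0.34 times what free RNA would give and is not told apart from it.

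MX1 and ISG15 followed the blebs less closely in rods, and the eyes differed. MX1 stood, right eye first, at 6.56 and 0.574 CPM in the uninjected areas, 24.9 and 0.692 CPM in the hRPGR blebs, and 44.5 and 28.0 CPM in the mScarlet blebs. The left hRPGR bleb lay at the level of the left uninjected area, while the right one was several times above its own. Measured MX1 was 1.14 (right) and 0.35 (left) times the free RNA expectation in the hRPGR blebs and 4.74 and 2.84 times in the mScarlet blebs, and in both uninjected areas it was below the expectation. ISG15 stood at 26.5 and 3.36 CPM in the uninjected areas, 109.3 and 6.66 CPM in the hRPGR blebs and 103.9 and 58.2 CPM in the mScarlet blebs. For ISG15 the right hRPGR bleb was level with the right mScarlet bleb, and all 6 NHP2 libraries lay at least 2.71 times above the free RNA expectation. The log2 fold changes over the uninjected area were 3.12 (SE 1.36) for MX1 and 2.25 (SE 1.26) for ISG15 in the mScarlet blebs, and 1.62 (SE 1.35) and 1.77 (SE 1.25) in the hRPGR blebs.

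**Figure D1:**
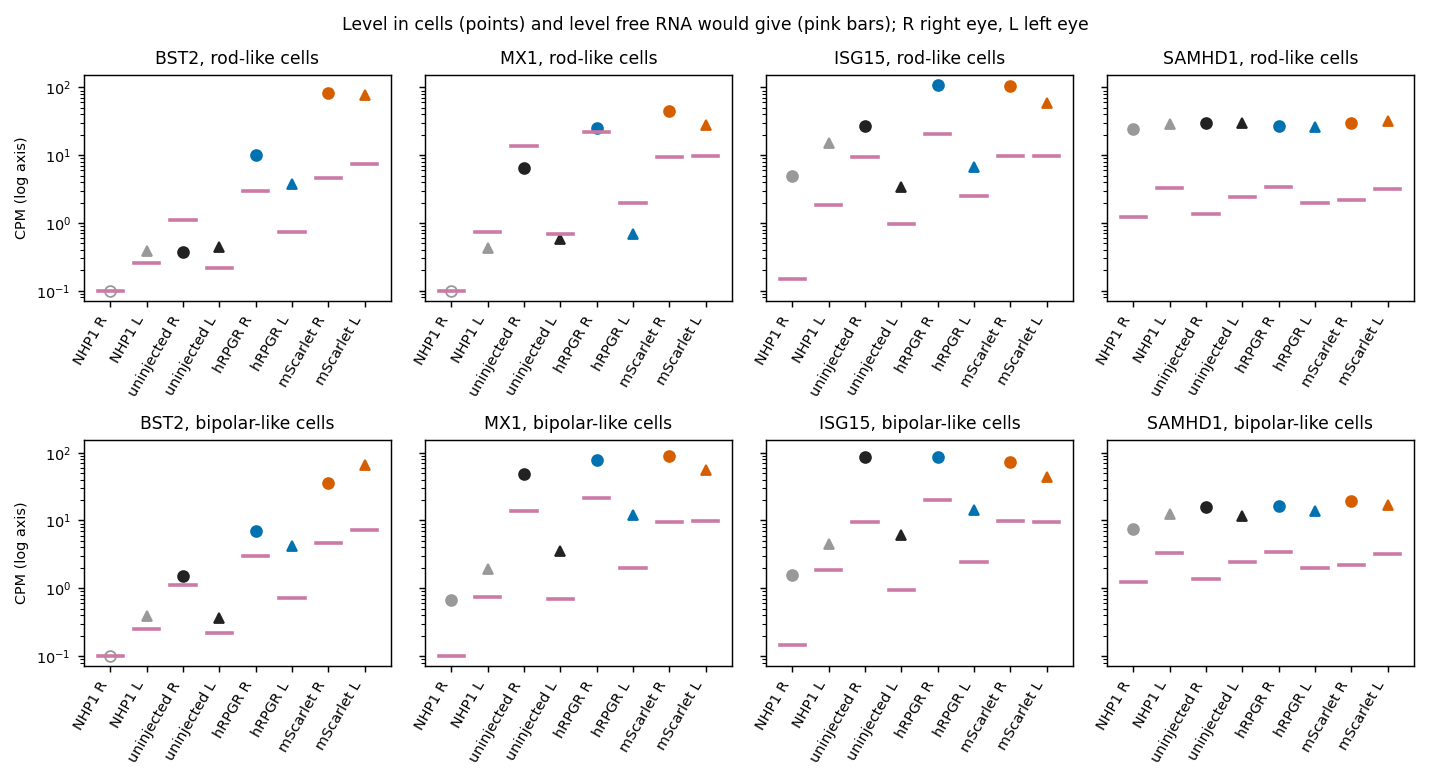
CPM (log axis) of BST2, MX1, ISG15 and SAMHD1 in rod-like (top) and bipolar-like (bottom) cells of each library, circles for right and triangles for left eyes, with a pink bar at the level that free RNA alone would give; open symbols and bars at 0.1 stand for values below 0.1. BST2 points of the mScarlet blebs sit far above their bars in both classes, SAMHD1 points form a level row, and MX1 in rods of the right hRPGR bleb (24.9 CPM) lies on its bar.

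SAMHD1 did not follow the blebs in rods. Its 8 values lay between 24.8 and 32.1 CPM, including both NHP1 libraries, and its log2 fold changes over the uninjected area were -0.05 (SE 0.08) for mScarlet and -0.24 (SE 0.08) for hRPGR. The measured level was 8.03 to 21.5 times the free RNA expectation in the 6 NHP2 libraries, above it in each area. RSAD2 was sparse, with 0.0937 and 0.132 CPM in the uninjected areas, 0.388 and 0.109 CPM in the hRPGR blebs and 1.01 and 0.778 CPM in the mScarlet blebs. Its fold change of 2.84 (SE 0.67) on the log2 scale in the mScarlet blebs rests on 31 and 27 UMIs there against 3 and 3 in the uninjected areas. MX2 and ISG20 did not pass the filter on low counts in rods, where MX2 reached at most 41 UMIs, in the right hRPGR bleb, and ISG20 at most 11, in the left mScarlet bleb.

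Of the 7 genes, 5 passed the filter on low counts in rods and 1, BST2, had an edgeR adjusted p under 0.05 for mScarlet, where 2.18% of all 14364 genes tested did. For hRPGR the count was 0 with edgeR, where 0% of all genes did, and 1 with DESeq2. An unadjusted p under 0.05 was held by 2 of the 5, against 5.8% of all genes. Since these contrasts chose the genes, nothing is read from either count. Rods of the 2 kinds of bleb, the same cells whose values chose the genes, differed in BST2 by 3.49 (SE 0.36) on the log2 scale, higher in the mScarlet blebs. There edgeR called 0 of 5 (1 with DESeq2) against 0.0139% of all genes. At an unadjusted p under 0.05 were 3, against 8.4% of all genes, and nothing is read from these counts either. Rod-like cells came mostly from different clusters, 11, 15 and 47 in the uninjected areas and 12, 36 and 58 in the mScarlet blebs (also 53 in the right one). The right hRPGR bleb drew on 12, 36, 53 and 58 and the left one on 11, 15, 47 and 53, with the 7 genes left out of the clustering.

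Outside rods, BST2 separated the 3 areas in bipolar-like and horizontal-like cells, but not in cone-, amacrine- or retinal ganglion-like cells. How many of all genes separate the areas in these classes was not counted. The rule for the genes read UMIs per cell class, area and eye, so cells outside rods are not shown to be outside the choice. They also share punches and libraries with the rods. Calls in these cells and between the eyes are therefore descriptions. Bipolar cells pass the photoreceptor signal on to ganglion cells. In bipolar-like cells BST2 stood, right eye first, at 1.49 and 0.359 CPM in the uninjected areas, 7.08 and 4.17 CPM in the hRPGR blebs, and 35.4 and 65.7 CPM in the mScarlet blebs. The 3 areas did not overlap, as in rods, with means of 0.926 ± 0.803, 5.62 ± 2.06 and 50.5 ± 21.4 CPM (SD, n = 2 each). BST2 rose in the mScarlet blebs against the uninjected areas by 5.76 (SE 0.47) on the log2 scale, with an adjusted p of 0.000467 (edgeR quasi-likelihood test, Benjamini-Hochberg over all genes). Against the hRPGR blebs it was higher by 3.25 (SE 0.35), with an edgeR adjusted p of 0.0114. For hRPGR against the uninjected area its log2 fold change was 2.51 (SE 0.68), with an edgeR adjusted p of 1. There edgeR called 0 of 4 members (0 with DESeq2) against 0.0154% of all genes. At an unadjusted p under 0.05 was 1 of the 4, against 3.44% of all genes. The calls covered 1 of the 4 members that passed the filter, against 0.757% of all genes for mScarlet over the uninjected area and 0.0927% for mScarlet over hRPGR. Free RNA would have given 4.59 and 7.32 CPM in the mScarlet blebs, and the measured level was 7.72 and 8.97 times that. Without the right library labelled uninjected the rise over the uninjected area was 7.08, with an edgeR adjusted p of 0.00186. Without the right mScarlet library BST2 had 6.11 over the uninjected area (edgeR adjusted p 0.000804) and 3.59 over the hRPGR blebs (edgeR adjusted p 0.00934). The call against the hRPGR blebs was lost without the left mScarlet library, at a fold change of 2.74 and an edgeR adjusted p of 0.116.

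MX1 and ISG15 in bipolar-like cells differed between the eyes as well as the areas. MX1 stood at 48.7, 77.1 and 89.2 CPM in the right uninjected area, hRPGR bleb and mScarlet bleb, and at 3.59, 11.9 and 54.8 CPM in the same areas of the left eye. ISG15 stood at 87.8, 85.2 and 72.4 CPM on the right and at 6.09, 14.4 and 43.9 CPM on the left. Each right area exceeded its left counterpart for both genes, and the gap was narrowest in the mScarlet blebs. MX1 had the same order of areas in both eyes, and its left mScarlet bleb lay above the right uninjected area, whereas the 3 right ISG15 values all exceeded the left ones. Neither passed for mScarlet over the uninjected area, with log2 fold changes of 1.46 (SE 0.84, edgeR adjusted p 0.547) and 0.31 (SE 0.87, edgeR adjusted p 0.922). The ISG15 value turned to -0.61 without the left uninjected library and to -0.12 without the right mScarlet library. SAMHD1, at 11.7 to 19.6 CPM in the 6 libraries, changed by 0.41 (SE 0.20) on the log2 scale, with an edgeR adjusted p of 0.488.

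Horizontal cells, the inhibitory neurons at the photoreceptor terminals, gave a similar picture for BST2 from far fewer cells (35 to 117 per library). BST2 stood at 1.71 and 4.84 CPM in the uninjected areas, 38.3 and 77.2 CPM in the hRPGR blebs, and 88.1 and 172.5 CPM in the mScarlet blebs. It rose in the mScarlet blebs by 5.38 (SE 0.59) on the log2 scale, with an edgeR adjusted p of 0.00685, which made 1 of 3 members tested against 0.189% of all genes. Without the left mScarlet library the edgeR adjusted p was 0.0761, at a fold change of 4.81, without the right one it was 0.0143, at 5.75, and without the right library labelled uninjected it was 0.000602, at 4.79. For hRPGR the fold change was 4.14 (SE 0.65) with an edgeR adjusted p of 0.102, and BST2 was called when eye was a block in the model (4.13, edgeR adjusted p 0.0156). Without the block edgeR called 0 of 3 members (1 with DESeq2) against 0.0839% of all genes. At an unadjusted p under 0.05 was 1 of the 3, against 4.14% of all genes. In the left hRPGR bleb 43 of the 46 BST2 UMIs came from 3 cells, and in the left mScarlet bleb 76 of 346 did. The UMIs in the uninjected areas numbered 2 and 4. Between the blebs edgeR called 0 of 3 members (1 at an unadjusted p under 0.05, 0 with DESeq2) against 0.0105% of all genes (4.32% at that unadjusted p). For the eye it called 0 of 3 (3 and 0) against 0% (1.88%). The left over right log2 differences were 1.00 (SE 0.22) for BST2, -2.37 (SE 0.57) for MX1 and -2.02 (SE 0.62) for ISG15. MX1 in horizontal-like cells did not overlap between the eyes, at 211.8, 245.5 and 212.9 CPM in the right uninjected area, hRPGR bleb and mScarlet bleb and 3.63, 58.7 and 90.7 CPM on the left. Without the right library labelled uninjected, MX1 was called for mScarlet (5.31, edgeR adjusted p 0.0136) and for hRPGR (5.45, edgeR adjusted p 0.0226), as was ISG15, which had 0 UMIs in the remaining uninjected library. BST2 was then also called for hRPGR (3.50, edgeR adjusted p 0.0312).

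In cone-like cells BST2 was lower than in rods, and no member passed. It stood at 0 and 0.175 CPM in the uninjected areas, 3.17 and 0 CPM in the hRPGR blebs and 14.1 and 5.86 CPM in the mScarlet blebs. With 0 UMIs in 2 of the 6 libraries, the fitted change of 6.48 (SE 1.38) on the log2 scale for mScarlet over the uninjected area, with an edgeR adjusted p of 0.093, depends on how zeros are treated. Free RNA would have given cones of the left mScarlet bleb more BST2 than was measured (0.80 times the expectation), and on the right the level was 3.08 times it. ISG15 in cones stood at 86.0, 54.5 and 67.5 CPM in the right uninjected area, hRPGR bleb and mScarlet bleb and at 9.82, 16.4 and 47.6 CPM on the left. None of 4 members was called for mScarlet with edgeR (0 with DESeq2), against 0.652% of all genes. At an unadjusted p under 0.05 were 2 of the 4, against 15.8% of all genes. For hRPGR over the uninjected area edgeR called 0 of 4 (2 at an unadjusted p under 0.05, 0 with DESeq2) against 0.0172% of all genes. For mScarlet over hRPGR it called 0 of 4 (1 and 0) against 0.111%, and for the eye 0 of 4 (1 and 0) against 0.00858%. At an unadjusted p under 0.05 were 6.15%, 8.56% and 2.12% of all genes in these 3 comparisons. In the left mScarlet bleb 35 of 41 MX1 UMIs in cone-like cells came from 3 cells.

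**Figure D2:**
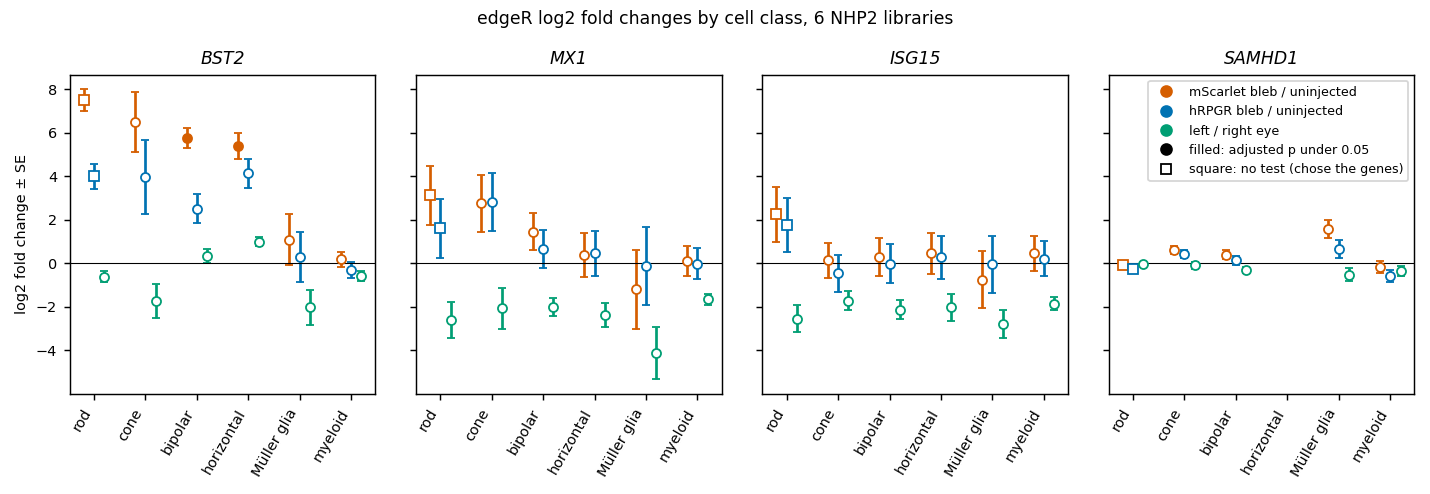
edgeR log2 fold changes (vertical axis, bars are SE) by cell class in the 6 NHP2 libraries for mScarlet bleb over uninjected area (orange), hRPGR bleb over uninjected area (blue) and left over right eye (green); filled circles passed an adjusted p of 0.05 and squares mark the rod contrasts that chose the genes and carry no test. BST2 changes descend from rods (7.49) through bipolar-like cells (5.76) to myeloid-like cells (0.19), while the green points of MX1 and ISG15 lie below 0 in each class.

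Müller glia, which span the retina and support its neurons, held the highest MX1 and ISG15 levels of the right eye among the named classes, far above those of the left eye. MX1 stood at 3231 CPM in the right uninjected area, 2957 CPM in the right hRPGR bleb and 1041 CPM in the right mScarlet bleb. On the left it stood at 30.8, 140.9 and 474.7 CPM in the same order. The 2 eyes did not overlap, and they ran in opposite order: on the right the uninjected area was highest, on the left the mScarlet bleb. ISG15 did the same, at 1748, 1650 and 780.5 CPM on the right and 99.5, 187 and 385.9 CPM on the left. In NHP1 the 2 genes stood at 2.70 and 4.77 CPM (MX1) and 9.59 and 20.1 CPM (ISG15), below each NHP2 library. After thinning, 94.4% of the Müller glia-like cells of the right uninjected area and 6.84% of those of the left had an MX1 UMI, so the gap was not carried by a few cells. The measured MX1 level was 44.6 to 235 times the free RNA expectation in the 6 libraries.

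BST2 in Müller glia-like cells was at 216.6 and 11.8 CPM (right and left) in the uninjected areas, 230.6 and 52.2 CPM in the hRPGR blebs and 251.1 and 259.7 CPM in the mScarlet blebs. The right eye was thus level across areas, and the left eye reached that level only in the mScarlet bleb. SAMHD1, flat in rods, stood at 46.5 and 16.8 CPM in the uninjected areas, 54.0 and 43.5 CPM in the hRPGR blebs and 94.2 and 99.5 CPM in the mScarlet blebs, where both libraries exceeded the other 4. Its log2 fold change for mScarlet was 1.58 (SE 0.42), with an edgeR adjusted p of 0.172. ISG20 had 8.44 and 12.3 CPM in the mScarlet blebs against 3.10 and 2.15 CPM in the uninjected areas, which gave 1.96 (SE 0.34) on the log2 scale with an edgeR adjusted p of 0.0813. MX2 was at 7.44 and 0.323 CPM in the uninjected areas, 20.8 and 1.91 CPM in the hRPGR blebs and 19.5 and 27.1 CPM in the mScarlet blebs. RSAD2 was at 6.41 and 0.215 CPM, 7.23 and 2.43 CPM, and 5.07 and 6.36 CPM. edgeR called 0 of the 7 members for mScarlet, against 0.324% of all genes. At an unadjusted p under 0.05 were 2 of the 7, against 14.8% of all genes. DESeq2 called 2, ISG20 and SAMHD1, but the share of all genes that it called is not given, so nothing is read from these calls. For hRPGR over the uninjected area, and for mScarlet over hRPGR, edgeR called 0 of 7 (1 at an unadjusted p under 0.05 and 0 with DESeq2 in each), against 0.00771% of all genes in each. At an unadjusted p under 0.05 were 3.63% and 11.4% of all genes. Without the right library labelled uninjected edgeR called ISG20 and SAMHD1 for mScarlet over the uninjected area, SAMHD1 with a log2 fold change of 2.48 (adjusted p 0.00498) and ISG20 with 2.22 (adjusted p 0.0435).

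Left eyes were compared with right eyes over the 3 areas of NHP2, with area as a term. In myeloid-like cells, the microglia and macrophages of the samples, MX1 stood at 1017, 1025 and 979.0 CPM in the right uninjected area, hRPGR bleb and mScarlet bleb and at 259.1, 332.3 and 378.0 CPM on the left. MX2 stood at 640.2, 573.4 and 472.6 CPM on the right and 268.8, 234.8 and 205.5 CPM on the left. ISG15 stood at 259.4, 315.0 and 278.5 CPM on the right and 46.8, 61.1 and 137.5 CPM on the left. For all 3 genes each right library exceeded each left one, but how many of all genes do so was not counted. The log2 differences were -1.65 (SE 0.24) for MX1, -1.25 (SE 0.20) for MX2 and -1.85 (SE 0.30) for ISG15, each with an edgeR adjusted p of 0.114. edgeR thus called 0 of 7 members against 0.00931% of all genes. At an unadjusted p under 0.05 were 4 of the 7, against 2.89% of all genes. DESeq2 called MX1, MX2 and ISG15, but the share of all genes that it called is not given, so nothing is read from these calls. BST2 had a difference of -0.59 (SE 0.23), and SAMHD1 -0.35 (SE 0.21), both with an edgeR adjusted p of 1.

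In Müller glia-like cells the difference between eyes was -4.13 (SE 1.20) for MX1 and -2.79 (SE 0.63) for ISG15 on the log2 scale, both with an edgeR adjusted p of 0.999. There 0 of 7 members passed with edgeR (3 at an unadjusted p under 0.05, 0 with DESeq2), against 0% of all genes (3.25% at that unadjusted p). When either mScarlet library was left out, the MX1 differences were -5.54 and -5.54. The remaining mScarlet library then has no partner, so both fits rest on the uninjected and hRPGR libraries and are not separate results. The same holds for each such pair of fits of the eye difference. In bipolar-like cells the differences were -2.0 (SE 0.42) for MX1 and -2.13 (SE 0.43) for ISG15, with edgeR adjusted p of 0.494 and 0.491 and 0 members called (2 at an unadjusted p under 0.05, 0 with DESeq2), against 0.0463% of all genes (3.15% at that unadjusted p). Both were called without either uninjected library, without either mScarlet library or without the left hRPGR library. In rods BST2 differed by -0.60 (SE 0.27) between eyes, against -2.59 (SE 0.83) for MX1 and -2.54 (SE 0.62) for ISG15. There 0 of 5 members were called (2 at an unadjusted p under 0.05, 0 with DESeq2) and 0% of all genes (1.03% at that unadjusted p). The BST2 difference was above 0 in bipolar-like (0.33, SE 0.33) and horizontal-like cells (1.00, SE 0.22). It was below 0 in rod-, cone-, Müller glia- and myeloid-like cells. Free RNA held more MX1 on the right in the uninjected areas and hRPGR blebs, but not in the mScarlet blebs: MX1 stood at 119, 179 and 50.3 CPM in free RNA of the right uninjected area, hRPGR bleb and mScarlet bleb and at 7.01, 13.1 and 58.5 CPM on the left. With free RNA subtracted, the BST2 calls over the uninjected area in bipolar- and horizontal-like cells remained, at log2 fold changes of 7.25 and 5.55.

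**Figure D3:**
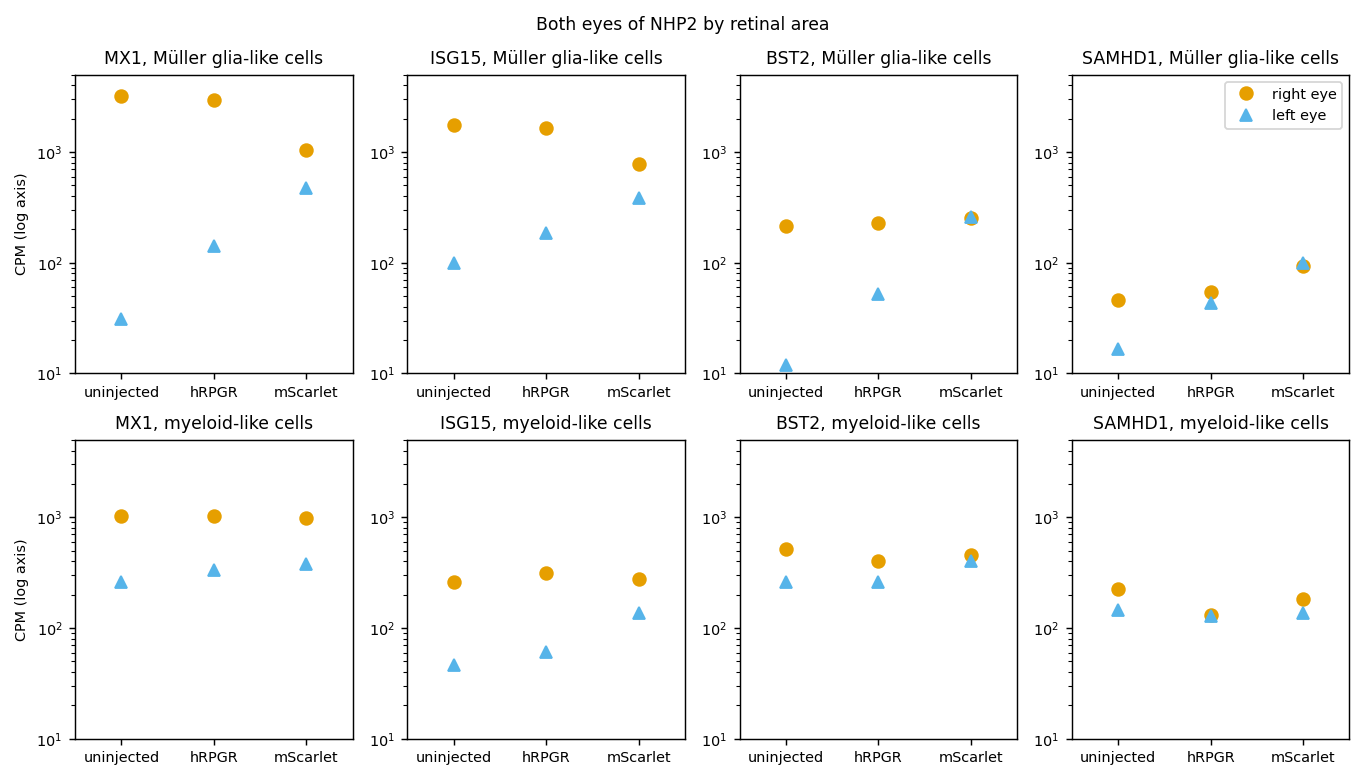
CPM (log axis) of MX1, ISG15, BST2 and SAMHD1 in Müller glia-like (top) and myeloid-like (bottom) cells of NHP2 by retinal area, right eyes as circles and left eyes as triangles. MX1 in Müller glia-like cells runs from 3231 CPM down to 1041 CPM across the areas on the right and from 30.8 CPM up to 474.7 CPM on the left, and the BST2 symbols meet in the mScarlet blebs.

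MX2 and ISG20 were sparse in neurons. Among the named classes MX2 was highest in myeloid-like cells and ISG20 in T/NK-like cells in each of the 6 NHP2 libraries. Clusters 59 (456 cells) and 62 (217 cells), with plasma cell markers as the best match, stayed unnamed and are in no class compared here. MX2 in myeloid-like cells ranged from 205.5 to 640.2 CPM in the NHP2 libraries and from 33.1 to 368.4 CPM in T/NK-like cells, against at most 3.93 CPM in rod-, cone-, bipolar- and horizontal-like cells. ISG20 was highest in T/NK-like cells, at 416.6 to 621.6 CPM, against 23.9 to 39.0 CPM in myeloid-like cells and at most 12.3 CPM in Müller glia-like cells. B-like cells had 140.9 and 135.2 CPM of ISG20 in the right and left mScarlet blebs, from 82 and 111 UMIs, and 59.1 CPM in the right hRPGR bleb. They had 0 UMIs in the left hRPGR bleb and both uninjected areas, from 13 to 25 cells each. The B cell markers themselves summed to between 0 and 1647 CPM in B-like cells of the NHP2 libraries. The name B-like therefore does not hold in each library, and nothing is read from the ISG20 zeros. BST2 in myeloid-like cells ranged from 258.7 to 516.9 CPM without separating the areas, with log2 fold changes of 0.19 (SE 0.35, edgeR adjusted p 0.824) for mScarlet and -0.31 (SE 0.36, edgeR adjusted p 0.908) for hRPGR. SAMHD1 was at 129.4 to 224.9 CPM in myeloid-like and 171.9 to 264.8 CPM in T/NK-like cells, above its 24.8 to 32.1 CPM in rods. None of the 7 members was called in myeloid-like cells for mScarlet with edgeR (0 at an unadjusted p under 0.05, 0 with DESeq2), although 2.93% of all genes were (18.2% at that unadjusted p). For hRPGR over the uninjected area, and for mScarlet over hRPGR, it called 0 of 7 (0 at an unadjusted p under 0.05 and 0 with DESeq2 in each), against 0.00931% and 1.73% of all genes (6.57% and 13.4% at that unadjusted p). T/NK-like cells were too few in the uninjected areas (24 and 36) for a test. RSAD2 stayed at or below 21.4 CPM in the 6 tested classes and reached 103.6 CPM in T/NK-like cells of the right uninjected area, from 9 UMIs, and 46.6 CPM in pericyte-like cells of the right hRPGR bleb, from 6 UMIs.

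**Figure D4:**
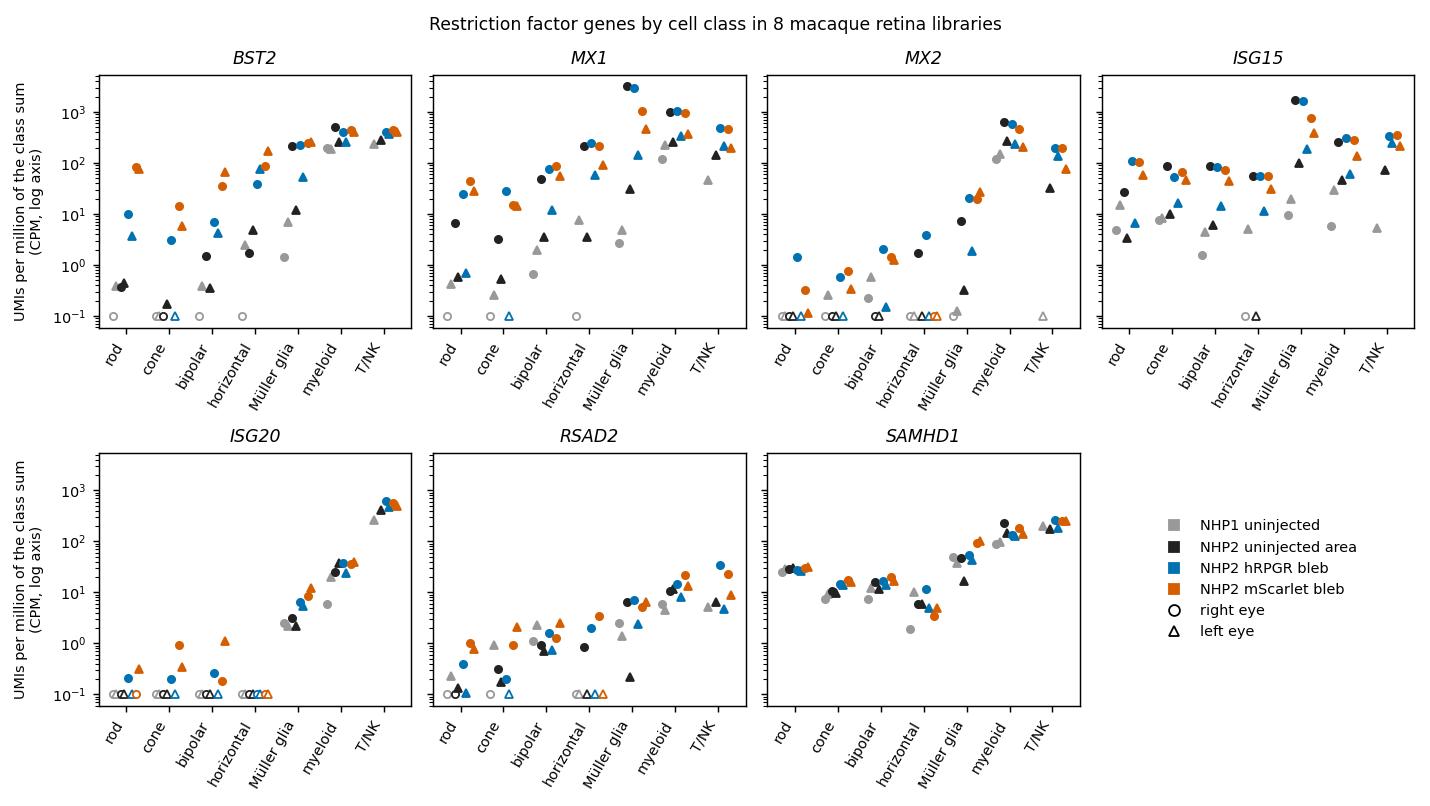
CPM (log axis) of each of the 7 genes by cell class in the 8 libraries, coloured by group, circles for right and triangles for left eyes; open symbols at 0.1 stand for values below 0.1, and classes with under 30 cells in a library are left out. ISG20 and MX2 peak in T/NK-like and myeloid-like cells, SAMHD1 forms a narrow band in rods (24.8 to 32.1 CPM), and BST2 in rods splits the mScarlet blebs from the other libraries.

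Amacrine-, retinal ganglion-, RPE-, B- and pericyte-like cells, as named, were too few to test. The amacrine-like cells are cluster 30 alone (648 cells), led by GAD1. Other clusters with amacrine as the best match, such as 31 (581 cells) and 41 (422 cells), stayed unnamed. In amacrine-like cells BST2 was at 8.40 to 49.8 CPM outside the mScarlet blebs and at 59.9 and 56.7 CPM in them. In retinal ganglion-like cells BST2 did not exceed 7.81 CPM in any library and was at 0 and 0.828 CPM in the mScarlet blebs, where bipolar-like cells of the same libraries had 35.4 and 65.7 CPM. The 28 and 47 ganglion-like cells of these blebs gave 0 and 2 BST2 UMIs. MX1 in ganglion-like cells was at 116.2 and 33.9 CPM in the hRPGR blebs and 49.4 and 45.5 CPM in the mScarlet blebs. In pericyte-like cells BST2 was at 82.8 to 347.4 CPM in NHP2, and in each area the right library was the higher.

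Within a bleb, rods with a transgene UMI were compared with rods without one, a contrast that the choice of genes did not use. Status was scored after each rod of at least 3000 UMIs had been thinned to that number, and shallower rods were left out. A rod scored as without may therefore hold a transgene UMI among those removed, and may carry the vector in any case. The same split on the full UMIs of all rods, added after the data had been seen, is given beside it for BST2, MX1 and ISG15. In the mScarlet blebs BST2 stood at 80.2 CPM with and 87.1 CPM without on the right, and at 77.9 and 75.6 CPM on the left. The ratios of with to without were 0.921 (exact 95% interval 0.85 to 0.997) and 1.03 (0.951 to 1.11), and on the full UMIs 0.887 (0.814 to 0.966) and 0.9 (0.831 to 0.974). The 4 ratios lay between 0.887 and 1.03.

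In the left hRPGR bleb BST2 stood at 5.62 CPM with and 0.604 CPM without a coRPGR UMI after thinning, a ratio of 9.31 (4.12 to 26.0) from 92 and 6 UMIs. On the full UMIs it stood at 4.88 and 0.444 CPM, from 101 and 3 UMIs, with an interval of the ratio of 3.65 to 54.1. ISG15 there had ratios of 5.61 (3.39 to 9.87) and, on the full UMIs, 3.18 (1.93 to 5.6). In the right hRPGR bleb the order was the reverse for BST2, 9.79 CPM with and 20.6 CPM without (ratio 0.474, 0.29 to 0.827), but only 131 thinned rods were scored as without. On the full UMIs, with 84 such rods and 6 UMIs, the ratio was 0.464 and its interval, 0.211 to 1.28, held 1. ISG15 in the mScarlet blebs had ratios of 1.15 (1.07 to 1.23) and 1.21 (1.11 to 1.33) after thinning, but 0.964 (0.892 to 1.04) and 1.05 (0.96 to 1.16) on the full UMIs. MX1 in the right and left mScarlet blebs had ratios of 1.12 (1.006 to 1.25) and 1.15 (1.005 to 1.3) after thinning, but 0.875 (0.779 to 0.984) and 1.03 (0.897 to 1.17) on the full UMIs, so the right bleb changed direction. In the right and left hRPGR blebs the MX1 ratios were 0.939 (0.603 to 1.55) and 0.835 (0.306 to 2.39) after thinning, and 0.487 (0.288 to 0.896) and 0.707 (0.251 to 2.27) on the full UMIs, with 14 and 6 UMIs in the rods without. Over the 4 blebs, after thinning, the log2 difference was 0.00 (SE 0.13) for BST2, 0.14 (SE 0.07) for MX1 and 0.28 (SE 0.12) for ISG15, each with an edgeR adjusted p of 1. edgeR called 0 of 6 members (1, ISG15, at an unadjusted p under 0.05, 0 with DESeq2) and 0.00753% of all genes (4.31% at that unadjusted p). For the mScarlet blebs alone it called ISG15, by 0.21 (edgeR adjusted p 0.0113), but on the full UMIs the interval of its ratio held 1 in both blebs.

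**Figure D5:**
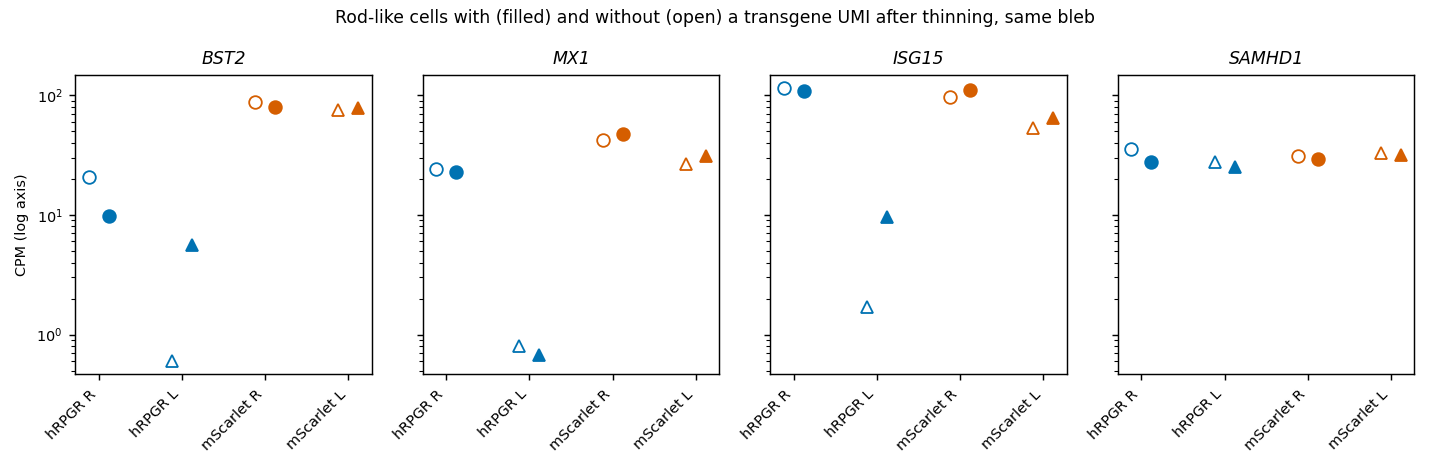
CPM (log axis) in rod-like cells with (filled) and without (open) a UMI of the bleb's transgene after thinning to 3000 UMIs, for each of the 4 blebs, circles for right and triangles for left eyes. BST2 pairs lie close together in the mScarlet blebs and far apart in the left hRPGR bleb (5.62 against 0.604 CPM).

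Other genes of the pathway were read from 4 lists, whose members were chosen with earlier results of these data known. The contrasts in rods are also those that chose the 7 genes. Counts, medians and adjusted p of list genes are therefore descriptions, and nothing is read from how they compare with all genes. In rods for mScarlet over the uninjected area edgeR called 9 list genes, where it called 2.18% of all genes, but 0 of these 9 with eye as a block, and 0 without any 1 of the uninjected or mScarlet libraries. With the unnamed rod-marker clusters counted 1 remained called, and with doublets kept 6. In bipolar-like cells 8 list genes were called, against 0.757% of all genes, of which 7 were with the block and 6 without the right library labelled uninjected. Without the left mScarlet library 2 were, without the left uninjected library 4.

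Of 6 genes of the ISG15 conjugation system, 3 were called in rods, with a median log2 fold change of 3.79 against 0.01 over all genes. They were UBE2L6, the E2 enzyme that hands on ISG15, with 6.09 (SE 0.55, edgeR adjusted p 0.0234), UBA7, its E1 enzyme, with 3.81 (SE 0.47, edgeR adjusted p 0.0289), and HERC5, an E3 ligase, with 3.25 (SE 0.56, edgeR adjusted p 0.0476). With the block their edgeR adjusted p were 0.0648, 0.0704 and 0.0817. In bipolar-like cells UBE2L6 and UBA7 rose by 2.74 (SE 0.33) and 2.47 (SE 0.35), with edgeR adjusted p of 0.00358 and 0.00926, and of 0.0126 and 0.0489 without the right library labelled uninjected. Of 30 other restriction factors tested in rods 1 was called, MOV10, an RNA helicase, with 2.35 (SE 0.42, edgeR adjusted p 0.0489, and 0.121 with the block). The median of these 30 was 1.21, and in bipolar-like cells 3 of 28 were called, with a median of 0.58. Of 16 interferon signal transducers 5 were called in rods, with a median of 1.00. SOCS1, a feedback inhibitor of JAK kinases, had 3.28 (SE 0.50, edgeR adjusted p 0.0394, and 0.109 with the block), and the transcription factors IRF1 and IRF7 had 2.91 (SE 0.41) and 2.83 (SE 0.40), with edgeR adjusted p of 0.035 and 0.0369, and of 0.0977 and 0.0704 with the block. At an unadjusted p under 0.05 in rods were 5 of the 6, 16 of the 30 and 10 of the 16 genes of these 3 lists, against 24.9% of all genes. Of 7 genes of dNTP metabolism, the pathway SAMHD1 drains, 0 were called in rods by edgeR (0 at an unadjusted p under 0.05), with a median of -0.05. For hRPGR, edgeR called 0 genes of the 4 lists in rods, with 4, 6, 6 and 0 genes at an unadjusted p under 0.05 and medians of 1.92, 0.85, 0.36 and -0.01 in the order given. Over all genes 0% were called in that comparison and 5.8% had an unadjusted p under 0.05.

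Across the 36 class sums of NHP2 (6 classes by 6 libraries), the genes closest to the mean profile of the members were TRIM22 (Pearson r 0.959), PSME2 (0.955), OAS2 (0.951), CMPK2 (0.95) and SP110 (0.95), out of 12170 genes compared. Among the members themselves the closest pair was MX2 and ISG20 (r 0.954), followed by MX2 and RSAD2 (0.914), whereas MX2 and ISG15 had 0.534. These sums share libraries and cell classes, so the correlations are descriptions and carry no test.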

How the data were processed

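Retinal cells of 8 libraries were profiled with a droplet 5′ kit. The authors aligned the reads with Cell Ranger to a Mmul_10 reference with the transgene sequences added and deposited unfiltered UMI counts per gene and barcode; no normalization had been applied. Cells were barcodes with at least 1500 UMIs, 300 genes and at most 20% mitochondrial UMIs. Scrublet scores marked 8604 of 91796 cells as likely doublets (0.8% per 1000 cells of a library), and these were removed. Clusters came from scanpy 1.11.5 (3000 variable genes less 33 members, listed genes and transgenes, 40 components, 15 neighbours, resolution 2; Python 3.11.15) and were named from marker lists by rules set after the clusters had been seen. UMIs were summed per class and library and tested in the NHP2 libraries with edgeR 4.0.16 (R 4.3.3; TMM, filterByExpr, quasi-likelihood test, Benjamini-Hochberg over all genes of the class, threshold 0.05); SE is the log2 fold change divided by the root of F. The edgeR script was tested on simulated data with the same spread for all genes and no difference between eyes. That checks the code and not the error rates in these data. The area contrasts were fitted with area alone and no term for the eye, so the pairing of areas within an eye was used only in the alternative with eye as a block. The eye contrast was fitted with area as a term. No design has a term for an interaction of area and eye. Thinned shares, and the transgene status of rods, used 3000 UMIs per cell, with exact intervals; cells with fewer were left out. Alternatives were DESeq2 1.42.0, RLE scaling, no filter, eye as a block, leaving out each library, subtracting free RNA, deeper cells, doublets kept and unnamed rod-marker clusters counted.

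Within NHP2, same-numbered libraries came from the same eye, so there the numbers pair the samples. In rods the correlations of their deviations were -0.371, 0.277 and -0.235. The members and lists were chosen with earlier results of these data known. All 7 members are named, and from each list at most the 3 genes with the largest change among those called in rods for mScarlet over the uninjected area. Counts and intervals cover counting error only.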

Additional observations from a re-analysis of the deposited data

Results flagged for a closer look

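In Müller glia-like cells the mScarlet bleb differed from the uninjected area in opposite directions in the 2 eyes of NHP2. For MX1 the bleb had 0.322 times (exact 95% interval 0.312 to 0.332) the uninjected level on the right and 15.4 times (13.7 to 17.5) on the left, so that the left log2 ratio exceeded the right by 5.58. For ISG15 the folds were 0.446 (0.43 to 0.463) on the right and 3.88 (3.59 to 4.2) on the left, a gap of 3.12 between the log2 ratios. Opposite directions were not particular to Müller glia-like cells. For the mScarlet bleb ISG15 had 0.825 (right) and 7.21 (left) in bipolar-like and 0.785 and 4.85 in cone-like cells. BST2 had 0.878 and 1.56 in myeloid-like cells. With 1 library per area and eye the difference between eyes was not tested. The right uninjected library is the one with coRPGR UMIs in 19.3% of rod-like cells, and the part of this in the result was not tested.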

How the results depend on the processing

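Counts of members called are given here as the edgeR count and the count under the alternative. Shares of all genes called, given above, belong to the main edgeR fit. Calls over all genes under the alternatives are given only for rods and mScarlet, so the other counts show only that calls moved with the setting. With DESeq2 the counts went from 0 to 1 in rods for hRPGR over the uninjected area and for mScarlet over hRPGR, from 0 to 2 in Müller glia-like cells for mScarlet over the uninjected area, from 0 to 1 in horizontal-like cells for hRPGR, and from 0 to 3 in myeloid-like cells for the eye. Without the filter on low counts the counts in rods were 2 for mScarlet, 1 for hRPGR and 1 between blebs; in cone-like cells 2 in each of the 4 comparisons; in bipolar-like cells 3 for mScarlet and 2 in each other comparison; in Müller glia-like cells 1 for mScarlet; in horizontal-like cells 1 for hRPGR, 1 between blebs and 2 for the eye; in myeloid-like cells 3 for the eye; and 1 for transgene status. With the replicate block (eye) the count in horizontal-like cells for hRPGR was 1, and the block changed no other count of members, but left 0 of 9 list genes called in rods for mScarlet; for the eye comparison no block is possible, since eye is the term tested. Cells with at least 3000 UMIs gave 1 in Müller glia-like cells for mScarlet, and the mScarlet blebs alone gave 1 for transgene status. The cause of these changes was not tested.

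Leaving out 1 library at a time gave 0 to 3 members in rods for mScarlet, 0 to 1 for hRPGR, 0 to 1 between blebs and 0 to 1 for the eye. The range was 0 to 2 for mScarlet, 0 to 1 for hRPGR and 0 to 1 for the eye in cone-like cells, 0 to 1 between blebs and 0 to 2 for the eye in bipolar-like cells, and 0 to 2 for mScarlet and 0 to 3 for the eye in Müller glia-like cells. In horizontal-like cells it was 0 to 3 for mScarlet, 0 to 3 for hRPGR and 0 to 1 for the eye, in myeloid-like cells 0 to 3 for the eye, and for transgene status 0 to 1. An arm left with 1 library is assumed to vary like the others. Over all genes, rods for mScarlet gave 313 calls with edgeR, 1588 with DESeq2, 1468 without the filter, 6 with the replicate block and 0 to 1511 with 1 library left out.

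Of 126 log2 fold changes of members, 53 changed sign under at least 1 alternative, 51 of them without 1 library; 0 of these 53 had been called by edgeR, and 0 of the changed values were called. In Müller glia-like cells mScarlet over the uninjected area had -1.19 for MX1 and -0.75 for ISG15, which became 1.22 and 0.42 with the replicate block (eye); without 1 library they ran from -2.18 to 4.57 and from -1.67 to 2.498, positive without the right uninjected library. Without 1 library ISG15 in bipolar-like cells for mScarlet ran from -0.61 to 3.26, MX1 and ISG15 in rods for hRPGR from -2.51 to 4.42 and from -1.28 to 4.05 (negative without the right hRPGR library), and BST2 in myeloid-like cells from -0.24 to 0.86 for mScarlet and from -0.75 to 0.35 for hRPGR. For transgene status BST2 had -0.0019 with RLE scaling, -0.056 in the mScarlet blebs alone and -0.0699 to 0.173 without 1 library, and MX1 had -0.20 in the hRPGR blebs alone, an alternative chosen after the data had been seen.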
